A study of Mus musculus with 17 samples.

Results

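Chromatin accessibility after a single dose of cocaine was compared in nucleus accumbens neurons of diestrus female mice, using the 3 libraries titled as diestrus cocaine and the 3 titled as diestrus control, 6 of the 17 libraries of the series. All were made from C57BL/6 females aged 52 to 54 days. The cocaine mice received 10 mg/kg by intraperitoneal injection and were killed 1 hour later. The control mice received no cocaine and stand for the time before the dose, so a vehicle injection was not part of the comparison. Neuronal nuclei were sorted by the NeuN antigen from bilateral accumbens tissue, and each library pooled 3 animals. The assay was ATAC-seq: the transposase Tn5 cuts open DNA and tags the ends. The title puts diestrus cocaine 2 in its group, whereas its stage field was not filled in. Differences between libraries therefore cover differences between pools, and fewer cells of a type cannot be told apart from weaker signal per cell in such bulk material.

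Medium spiny neurons, the GABAergic projection neurons that make up most of the accumbens, carry either D1 or D2 dopamine receptors. Cocaine blocks the dopamine transporter, and the rise in dopamine activates cAMP and calcium signalling that switches on immediate early genes such as Fos, Jun and Egr1 within the hour. Fos and Jun proteins dimerize as AP-1, which binds a short palindromic element and can recruit chromatin remodellers to distal enhancers. Diestrus is the stage of the cycle with low estradiol and high progesterone.

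The deposited data were 1 list of peaks per library. Peaks of the 6 libraries on chromosomes 1 to 19 were merged where they overlapped, which gave 208763 regions. A region was called gained if it held a peak in every cocaine library and in no control library, and lost in the converse case. The windows printed here are 201 bases of the mm10 reference, forward strand, around the summit of a region. They were chosen because the regions that changed most in the 2 directions differed in sequence. In the first 3, which were gained or rose after cocaine, capitals mark each match to the AP-1 element TGACTCA or its reverse complement TGAGTCA. Of all regions 8.33% had such a match no more than 100 bp from their summit.
chr3:37780175-37780375, gained, intergenic, nearest Gm5148: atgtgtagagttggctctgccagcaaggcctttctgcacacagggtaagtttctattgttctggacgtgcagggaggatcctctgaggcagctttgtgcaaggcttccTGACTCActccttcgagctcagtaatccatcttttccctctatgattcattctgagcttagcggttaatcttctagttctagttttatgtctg
chr10:43689870-43690070, gained, intron of F930017D23Rik, nearest Cd24a: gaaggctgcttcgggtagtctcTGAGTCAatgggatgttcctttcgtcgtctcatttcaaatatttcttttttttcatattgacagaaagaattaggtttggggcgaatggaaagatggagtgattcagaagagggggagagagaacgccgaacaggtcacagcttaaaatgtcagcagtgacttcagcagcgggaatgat
chr4:72664548-72664748, higher after cocaine, intergenic, nearest Aldoart1: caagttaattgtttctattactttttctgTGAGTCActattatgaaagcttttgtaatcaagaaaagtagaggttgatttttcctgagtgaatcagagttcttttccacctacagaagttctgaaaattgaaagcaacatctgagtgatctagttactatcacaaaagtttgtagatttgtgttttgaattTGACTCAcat

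The other 2 windows were lost or lower after cocaine. Capitals mark runs of the unit GGAAT or its reverse complement ATTCC, and an AP-1 match at the end of the window nearest Ndst4. Counted over whole regions and both strands, runs of 3 or more units were present in 0.0149% of all regions (31 of 208763).
chr3:125228339-125228539, lost, intergenic, nearest Ndst4: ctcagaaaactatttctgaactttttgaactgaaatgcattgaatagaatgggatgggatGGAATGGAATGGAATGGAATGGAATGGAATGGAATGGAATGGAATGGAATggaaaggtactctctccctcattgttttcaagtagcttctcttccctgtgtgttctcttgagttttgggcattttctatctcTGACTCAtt
chr17:4626250-4626450, lower after cocaine, intergenic, nearest Arid1b: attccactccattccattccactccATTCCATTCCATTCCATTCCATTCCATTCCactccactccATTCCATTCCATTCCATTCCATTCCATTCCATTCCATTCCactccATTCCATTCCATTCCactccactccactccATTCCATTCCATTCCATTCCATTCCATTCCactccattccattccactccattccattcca

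The cocaine libraries differed more among themselves than the controls did. Cocaine 1, 2 and 3 held 155025, 109849 and 98188 autosomal peaks, and controls 1, 2 and 3 held 127205, 137231 and 144699, so the groups overlapped. Read totals were not used here. The background pileup implied by the peaks, a stand-in for depth, was 6.95 to 7.71 in the cocaine libraries and 6.75 to 8.64 in the controls. The share of regions called in both of a pair of libraries, out of those called in either, was 0.556 to 0.578 between controls and 0.596 between cocaine 2 and cocaine 3. Cocaine 1 shared 0.523, 0.554 and 0.558 with the controls, but 0.497 and 0.437 with the other two cocaine libraries. Fold enrichment over the 49143 regions called in all 6 libraries gave the same order, with a Spearman rho of 0.907 to 0.925 between cocaine 1 and the controls and 0.829 to 0.883 between cocaine 1 and the other cocaine libraries. By both measures the library labelled cocaine 1 lay closer to the controls, and the main counts below are therefore also given without it. The labels do not tell whether this library was exchanged or responded less.

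**Figure D1:**
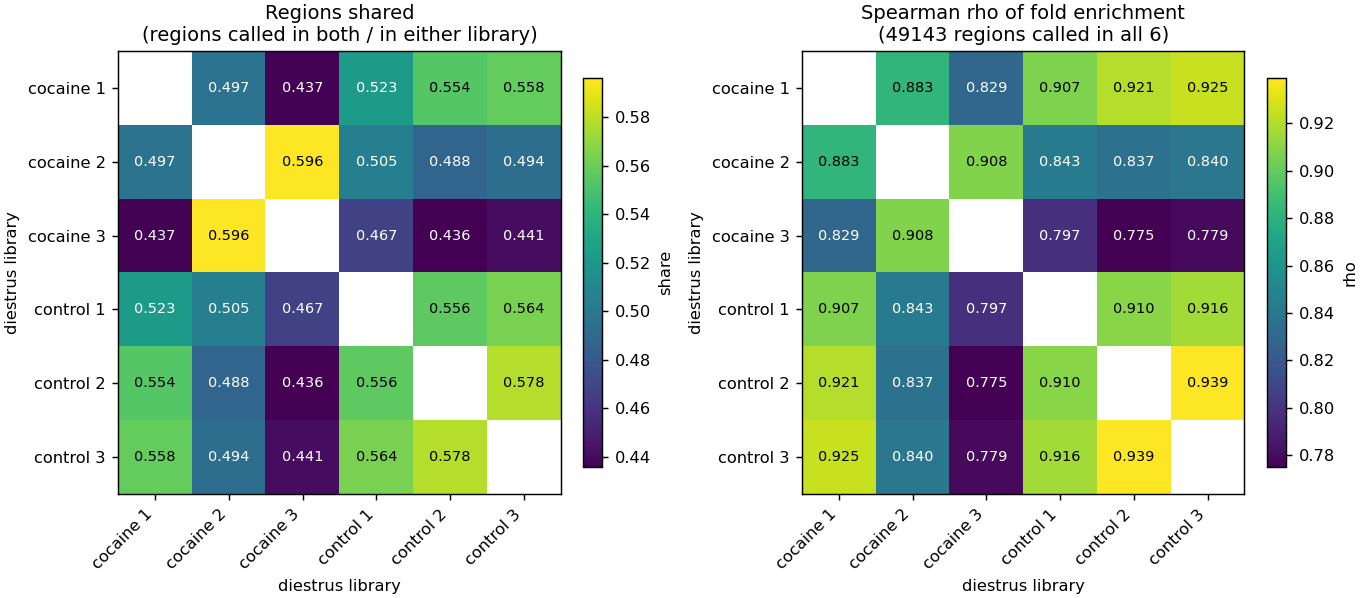
Pairwise likeness of the 6 diestrus libraries as the share of regions called in both of those called in either (left) and as Spearman rho of fold enrichment over 49143 regions called in all 6 (right). Cocaine 1 shares 0.523 to 0.558 of regions with the controls and 0.437 to 0.497 with cocaine 2 and 3, which share 0.596 with each other.

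The promoters of all 12 pan-neuronal marker genes held a peak in each library, among them Rbfox3, which encodes NeuN, and Snap25. Of 22 glial and vascular markers, 14 had no promoter peak in any diestrus library, including the astrocyte gene Gfap and the oligodendrocyte genes Mog and Sox10. The numbers of these 22 with a promoter peak were 5, 4 and 6 in cocaine 1 to 3 and 5 in each control. Promoters of 12 cortical excitatory markers were called 8, 6 and 5 times in the cocaine libraries and 6, 8 and 7 times in the controls. The promoter of Slc17a7, the cortical vesicular glutamate transporter, ranked at 94.1, 86.7 and 82.0 in the cocaine libraries and at 94.0, 95.4 and 94.8 in the controls. These are percentile ranks of fold enrichment among a library's own autosomal peaks, with 100 the strongest. Cocaine 1 ranked with the controls and the other two were lower, and the log2 difference over all 3 was −0.59 (limma, Benjamini-Hochberg adjusted p = 0.0553). The promoter of Cck, a peptide gene of cortical and interneuron populations, held a peak in cocaine 1 and in all 3 controls and in neither of the other two cocaine libraries. The part of such cells in the results was not tested.

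The regions gained after cocaine lay farther from gene starts than other regions and more often held an AP-1 match. In all, 1784 regions (0.855%) were gained and 2103 (1.01%) were lost. The median distance of gained regions from the nearest protein-coding start was 48747 bp, against 26933 bp for lost regions and 23468 bp for all regions. Of the gained regions 38.6% (95% Wilson interval 36.4 to 40.9) were intergenic, against 21.2% (19.5 to 23.01) of lost and 22.7% of all regions. Introns held 66.1% of lost and 51.4% of gained regions. Promoters, within 1 kb of any annotated start, were scarce in both sets, with 6.78% of gained and 6.61% of lost regions against 12.1% of all. The intervals cover counting error only. Without cocaine 1 the counts were 3976 gained (1.9%) and 11717 lost (5.61%), of which 37.4% and 24.8% were intergenic.

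Of the 1784 gained regions 361, or 20.2% (18.4 to 22.2), had an AP-1 match no more than 100 bp from the summit, and of the 2103 lost regions 70, or 3.33% (2.64 to 4.18). These shares were 15.8% and 5.72% without cocaine 1. The matches were placed at the summits. In gained regions 6.95% held a match in the 50 bases just after the summit, compared with 2.55% of all regions, while lost regions stayed near 0.856% there and showed no peak of matches. The homeobox core TAATTA was also commoner in gained regions, at 12.5% (11.1 to 14.1) against 6.13% of lost and 7.26% of all. The core of the CTCF motif, the binding element of the main insulator protein, was present in 2.52% of gained, 0.808% of lost and 1.57% of all regions.

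AP-1 matches were also counted in whole libraries, with no region selected. Matches lay at 9.56%, 10.6% and 9.68% of the autosomal peaks of cocaine 1, 2 and 3, and at 7.69%, 7.88% and 8.07% of those of controls 1, 2 and 3. Every cocaine library, including cocaine 1, was above every control, with means of 9.94 ± 0.557% and 7.88 ± 0.193% (SD, n = 3 each). This difference of 2.06 percentage points had an exact permutation p of 0.1, two-sided, which is the smallest that 3 against 3 libraries can give and was 0.433 after adjustment over 26 measures. The CTCF core was at 1.64 to 1.73% of control and 1.81 to 2.47% of cocaine peaks, and the intergenic share at 22.1 to 22.4% and 22.9 to 24.8%, again without overlap and with the same p of 0.1 in the exact test. Of the 26 measures, 6 did not overlap between the groups, the others of these being peak width, the share of narrow strong peaks and the share in 3′ untranslated exons. The promoter share overlapped between the groups, with means of 17.1 ± 2.01% after cocaine and 16.2 ± 0.759% in controls, and the sign of that difference turned with equal numbers of peaks or a 3 kb window.

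**Figure D2:**
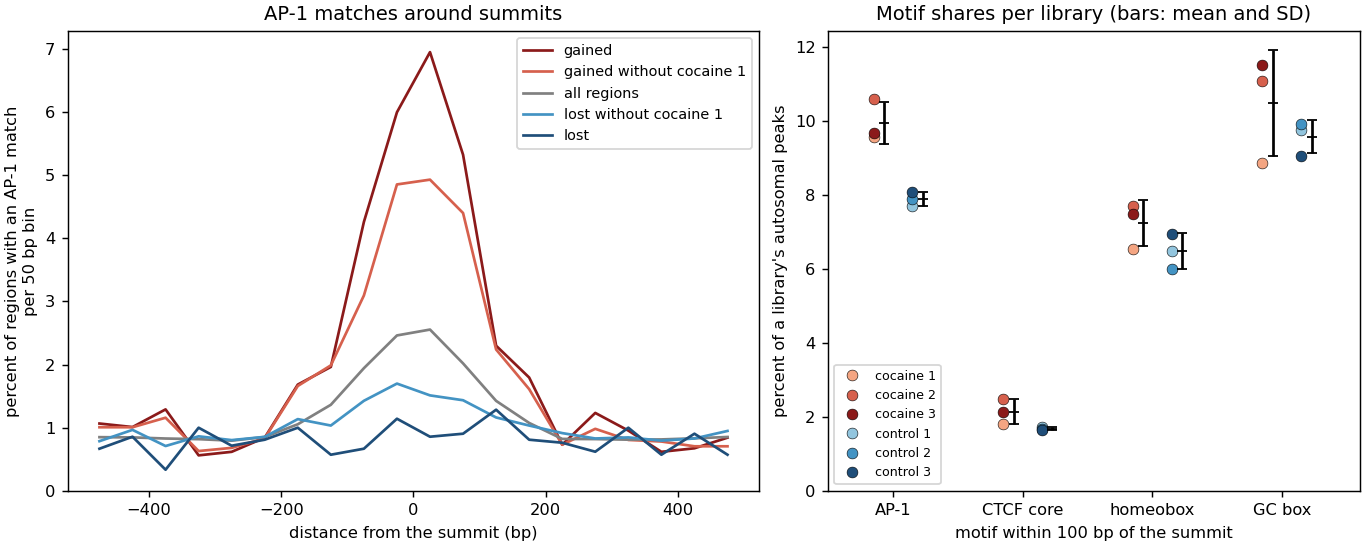
Left, percent of regions with an AP-1 match per 50 bp bin against the distance from the summit, for gained, lost and all regions; right, percent of each library's autosomal peaks with each of 4 motifs, 1 point per library with the mean and SD. AP-1 peaks at 6.95% of gained regions at the summit, and its share is 9.56 to 10.6% in the cocaine libraries and 7.69 to 8.07% in the controls.

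The proestrus females of the series, treated in the same way at the high-estradiol stage, gave libraries that took no part in choosing these regions. Of the gained regions, 704 (39.5%, 37.2 to 41.8) held a peak in all 3 proestrus cocaine libraries and 133 (7.46%, 6.33 to 8.77) in all 3 proestrus controls. Over all regions those shares were 30.9% and 30.3%. Of the lost regions, 98 (4.66%) were called in all proestrus cocaine libraries and 306 (14.6%) in all proestrus controls. Gain by the same rule in proestrus held for 297 (16.7%) of the regions gained in diestrus against 1.72% of all regions. Loss in both stages held for 77 (3.66%) of the regions lost in diestrus, against 1.62% of all. For the 3976 regions gained without cocaine 1 the share called in all proestrus cocaine libraries was 29.7% (1180), slightly under that of all regions, and the share called in all proestrus controls was 4.55% (181), while 570 (14.3%) were gained in proestrus. Males did not show this pattern. Of the gained regions 6.17% were called in all male cocaine libraries and 29.8% in all male controls, against 22.9 and 35.2% of all regions. Of the lost regions these shares were 3.28 and 19.1%. The male cocaine libraries held 86626 and 74532 autosomal peaks, fewer than any other library.

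The 10 gained regions of highest rank lay mostly between genes or in introns, and 6 of them held an AP-1 match. The first lay 32983 bp inside Mms22l, a gene for a replication fork repair protein, and ranked at 74.4, 74.7 and 79.4 in cocaine 1, 2 and 3. It was called in all 3 proestrus cocaine libraries and no proestrus control. The same proestrus pattern was found for the region nearest Cd24a, a surface glycoprotein gene, at ranks of 70.04, 73.9 and 76.2. Both held AP-1 matches. A region at a promoter of the non-coding gene Gm28497, nearest the transcription factor gene Ikzf2, ranked at 73.5, 80.9 and 71.9 without a match. Others were nearest Gm5148, Phf3, Hace1, Alx1, Aspm and Rad23b. The lowest rank of any of the 10 in a cocaine library was 66.7.

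The 10 lost regions of highest rank were of another kind. Of these 10 regions, 8 were under 400 bp wide and 5 held a run of GGAAT units. The region in Lipc nearest Adam10, a membrane protease gene, ranked at 89.2, 86.8 and 89.6 in controls 1, 2 and 3. The region nearest Ndst4, a heparan sulfate enzyme gene, ranked at 86.7, 85.7 and 87.6, and the one nearest Gulp1, an engulfment adaptor gene, at 91.8, 85.3 and 83.9. None of the 1784 gained regions held such a run, which allows a share of up to 0.168% (3 counts), whereas 10 lost regions (0.476%) did. Among the 100 lost regions of highest rank 8 held a run and 52 were under 400 bp wide, against 0 and 11 of the 100 gained regions of highest rank. The run was looked for after the printed windows had been seen.

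GGAAT is the repeat unit of human satellite DNA. Whether reads of another genome aligned to these places was not tested. Of the 31 regions with the repeat, 15, 13 and 9 were called in cocaine 1, 2 and 3, and 29, 28 and 30 in controls 1, 2 and 3. The groups did not overlap, and cocaine 1 lay with the other cocaine libraries here. However, 10 of the 31 were lost regions, which by definition had no peak in any diestrus cocaine library. This separation was therefore fixed in part by the choice of regions. In proestrus the counts were 14, 22 and 31 in the cocaine and 31, 31 and 30 in the control libraries, so these groups overlapped. In males they were 16 and 18 against 28, 19 and 31.

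**Figure D3:**
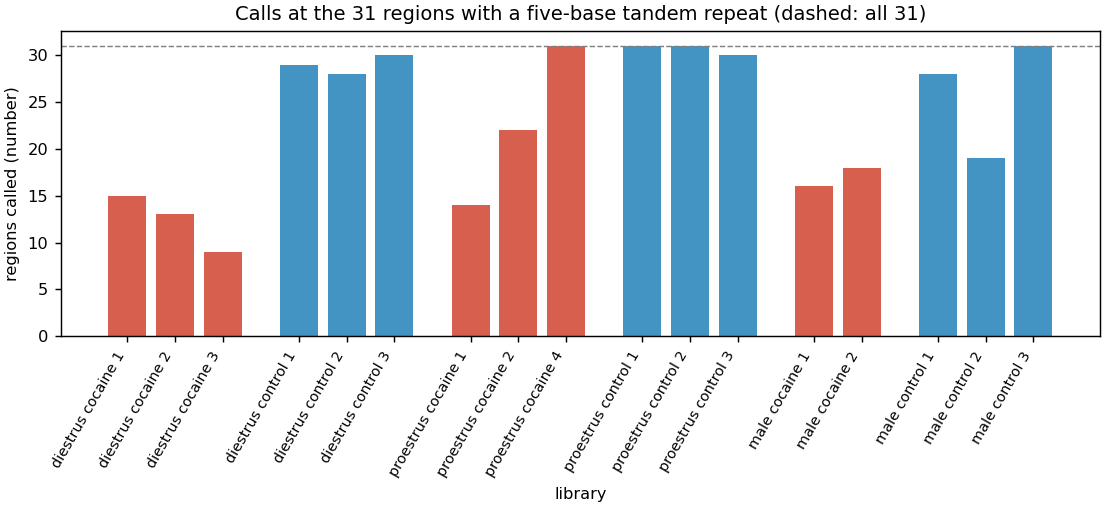
Number of the 31 regions with a run of GGAAT units that held a peak in each library, cocaine in red and control in blue, for diestrus, proestrus and male groups. The diestrus cocaine libraries call 9 to 15 of the 31 and the diestrus controls 28 to 30. Of the 31, 10 are lost regions, which by definition have no peak in any diestrus cocaine library.

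Graded accessibility was compared over the 49143 regions called in all 6 libraries. Fold enrichment was taken as log2, quantile-normalised and fitted with limma, and a region was called at a Benjamini-Hochberg adjusted p below 0.05. After cocaine 730 regions (1.49%) rose and 676 (1.38%) fell, with a median size of 0.73 on the log2 scale. Without cocaine 1 the counts were 6537 (13.3%) and 6572 (13.4%), and these included all 730 of the higher and 674 of the lower regions. Cocaine 1 took no part in that fit, although each region had to be called in it. It lay above every control in 3359 of the 6537 and below every control in 3102 of the 6572. The same controls helped to choose these sets, so this comparison is not independent. Each of the other libraries also decided the counts. Leaving out cocaine 2, cocaine 3, control 1, control 2 or control 3 left 0, 22, 5, 0 or 1 higher and 11, 63, 44, 12 or 12 lower regions. At an unadjusted p below 0.05, 5907 regions were higher and 5625 lower. With limma on percentile ranks in place of fold enrichment no region passed in either direction, and 2315 and 3530 had an unadjusted p below 0.05.

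AP-1 again separated the directions. Of the 5980 tested regions with a match, 203 (3.40%) rose and 28 (0.468%) fell, with a median log2 difference of 0.11 against 0.00 over all regions, and 0.10 when normalised within bins of GC content. Leaving out cocaine 1 gave 1069 (17.9%) and 506 (8.46%). The cAMP response element TGACGTCA, bound by CREB, behaved likewise in a smaller group, with 21 of 506 regions (4.15%) higher and 1 (0.198%) lower. The NR4A element, bound by the orphan receptors of the Nr4a immediate early genes, had 9 of 266 (3.38%) higher and 2 (0.752%) lower. The ETS element had 28 of 750 (3.73%) higher and 8 (1.07%) lower. Regions with the element of MEF2, an activity-regulated factor of neurons, went the other way, with 23 of 2674 higher and 59 lower and a median of −0.04. Without cocaine 1 the higher and lower counts were 140 and 57 for the cAMP element, 54 and 20 for NR4A, 191 and 92 for ETS and 231 and 429 for MEF2. The share of peaks with each of these 4 elements, and with the homeobox core, overlapped between the groups of libraries.

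The directions held in proestrus libraries, which the fit did not use. Of 652 diestrus-higher regions with a proestrus value, 637 (97.7%) were higher after cocaine in proestrus, with a median log2 difference of 0.36. Of 653 diestrus-lower regions, 43 (6.59%) were, with a median of −0.33. Over all 43154 regions with a value the share was 50.1%. For the larger sets without cocaine 1 the shares were 91.8% of 5963 and 11.9% of 6270.

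The largest rise was in a 1168-bp intergenic region 401450 bp from the start of Klf5, a zinc finger transcription factor gene. It ranked at 80.3, 88.0 and 86.9 in cocaine 1 to 3 and at 46.9, 49.6 and 10.2 in controls 1 to 3. The groups did not overlap, and the log2 difference was 1.30 ± 0.22 (SE, limma, adjusted p = 0.0161). The region nearest Aldoart1 printed above ranked at 87.0, 91.1 and 90.4 against 66.6, 64.3 and 74.1, a difference of 1.18. Intergenic regions nearest Nfkbiz, an inducible regulator of NF-kB, and Abca1, the cholesterol exporter gene, both with AP-1 matches, rose by 1.14 and 1.10. A region 63274 bp from Crh, which encodes corticotropin-releasing hormone, ranked at 86.7, 83.8 and 83.5 against 27.4, 70.6 and 55.2, and rose by 1.06. In an intron of Khdrbs2, nearest Gm5415, a region with an AP-1 match was at ranks of 68.7 to 77.8 in the cocaine libraries and of 0.338 to 4.93 in the controls. The 10 largest rises, between 1.04 and 1.30, also included regions nearest Prim2 and Ttc39c and the promoters of Dennd2a and Depdc7. Of the 7 with a proestrus value, the Depdc7 promoter alone was lower after cocaine there.

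The largest falls were mostly at repeats. The 686-bp region nearest Arid1b printed above ranked at 93.4, 87.6 and 74.2 in the cocaine libraries and at 99.9, 99.3 and 99.6 in the controls. Its difference was −2.40 ± 0.21 (SE, limma, adjusted p = 8.6e-06). Of the 10 largest falls, 5 held a run of GGAAT units and 7 had a tandem repeat at the summit. The regions nearest Gm8882, Mydgf, 5730522E02Rik and Pou4f1 carried the run, and fell by 2.20, 1.89, 1.47 and 1.44 on the log2 scale. Serpinf1 and Ntrk2, the gene of the BDNF receptor TrkB, each held an intronic region with another tandem repeat. The regions without one were nearest Fam227b, Malt1 and Shank2, of which the first and the second held an 11-base stretch that is also found in primate Alu elements. The region in an intron of Shank2, which encodes a postsynaptic scaffold protein, ranked at 87.8, 16.8 and 6.69 in cocaine 1 to 3 and at 90.5, 91.0 and 92.3 in controls 1 to 3. Cocaine 1 was close to the controls there and the difference was −1.41 (limma, adjusted p = 0.0228). Of the 10 largest falls, those in Serpinf1, Shank2 and Ntrk2 were higher after cocaine in proestrus, by 0.17, 0.15 and 0.47. The others were lower there too. Repeats were few among the falls as a whole, but commoner there than among all tested regions. Of the 676 lower regions 5 (0.74%) held the run, 8 (1.18%) the 11-base stretch and 9 (1.33%) a tandem repeat at the summit. Over all tested regions these shares were 0.0183%, 0.299% and 0.0895%.

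**Figure D4:**
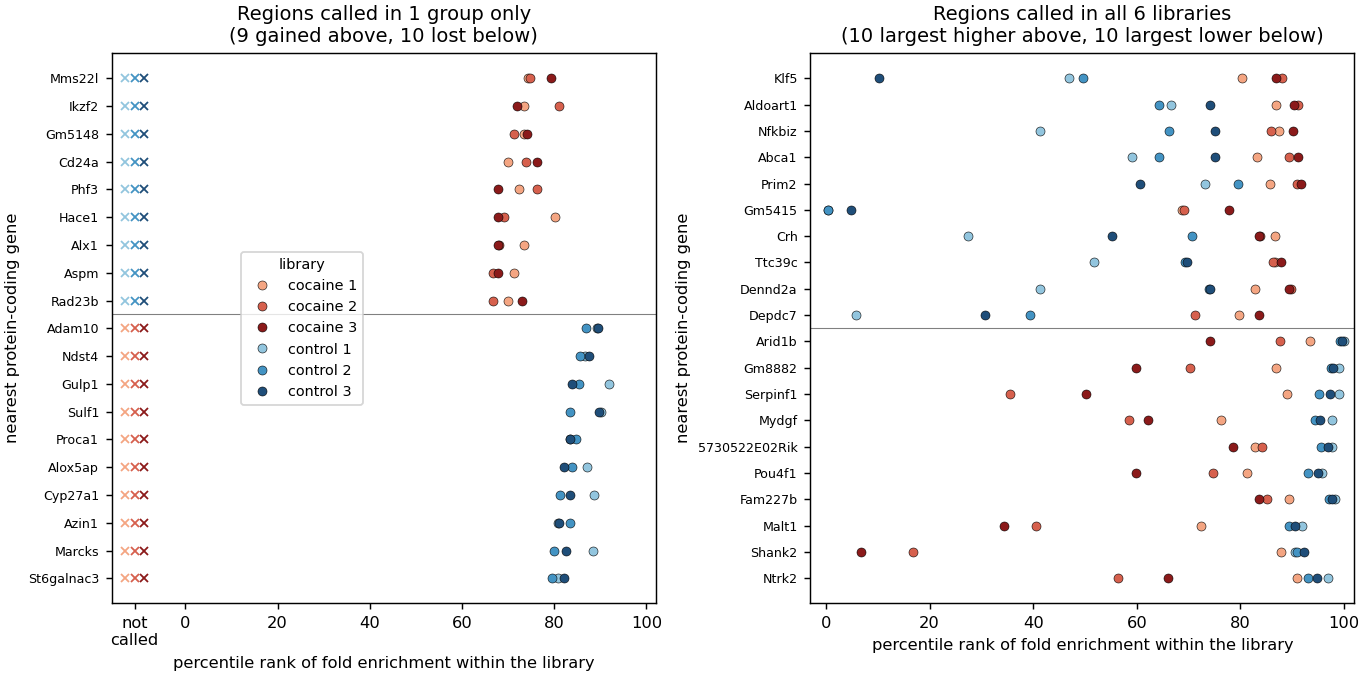
Percentile rank of fold enrichment within each library, 1 point per library, for 9 of the 10 gained and the 10 lost regions of highest rank (left, crosses for no peak) and the 10 largest rises and falls among regions called in all 6 libraries (right), named by the nearest protein-coding gene. In the right panel the cocaine points of Klf5 lie at 80.3 to 88.0 and its control points at 10.2 to 49.6, and cocaine 1 lies near the controls for Shank2.

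Promoters of protein-coding genes were compared in 16557 regions. Of these 73 were gained and 50 lost, or 169 and 352 without cocaine 1. Over all 208763 regions 1784 (0.855%) were gained and 2103 (1.01%) lost, or 3976 (1.9%) and 11717 (5.61%) without cocaine 1. Gain and loss were thus both rarer at these promoters than over all regions. The gained promoter of highest rank belonged to Hcrtr2, the orexin receptor 2 gene, at 61.7, 62.2 and 69.3 in the cocaine libraries. Those of Aim2 and Zfp697, which held AP-1 matches, were next. Gch1, the first enzyme of tetrahydrobiopterin synthesis, which dopamine synthesis requires, ranked at 68.7, 58.5 and 59.8, and Gem, a small GTPase gene, at 53.4, 66.7 and 53.9. Other controls held such peaks, since Hcrtr2, Gch1 and Gem were each called in 2 of 3 proestrus controls and in all 3 male controls. Lost promoters of highest rank included Sema3g, a secreted guidance cue gene, at 51.7, 62.1 and 47.7 in controls 1 to 3, Bok at 34.7, 33.2 and 37.2, the ubiquitin ligase gene Ube3a at 27.4, 26.2 and 58.1, and Prkar1b, a regulatory subunit of protein kinase A, at 27.4, 64.3 and 23.9. These were weaker peaks than the gained promoters, and with the same number of strongest peaks in each library 4 of the 10 were still lost against 10 of 10 gained.

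Where a protein-coding promoter was called in all 6 libraries, it rose more often than it fell. Of 10966 such promoters 296 (2.70%) were higher and 96 (0.875%) lower, with a median log2 difference of 0.06 against −0.01 for other regions. With normalisation within GC bins 401 and 91 promoters were called, and with median centring 184 and 38. Without cocaine 1 the counts were 2714 and 1577, but on percentile ranks without cocaine 1 the order flipped to 605 higher and 2181 lower. On that scale the median difference over all regions was −2.96 percentile points.

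Near genes of medium spiny neuron identity more regions were gained than lost. Of the 1140 regions nearest the 27 genes of this list, 28 (2.46%) were gained and 7 (0.614%) lost, against 0.855 and 1.01% of all regions, and without cocaine 1 the counts were 56 (4.91%) and 15 (1.32%), against 1.9 and 5.61%. The gained regions were nearest Isl1 (8), Meis2 (4), Foxp2 (3), Rarb (3) and others. Of the 296 tested regions of the list 3 (1.01%) rose and none fell, against 1.49 and 1.38% of all tested regions. Their median log2 difference was 0.09. Among the 23 promoters of the list called in all libraries, 3 rose and none fell. The promoters had a median log2 difference of 0.41, against 0.06 over all protein-coding promoters. Without cocaine 1, 13 of these 23 promoters rose and none fell, against 2714 and 1577 of all 10966 protein-coding promoters tested. The promoter of Penk, the enkephalin gene of D2 neurons, ranked at 91.4, 92.3 and 88.6 in cocaine 1 to 3 and at 76.6, 82.2 and 82.1 in controls 1 to 3. It rose by 0.88 (limma, adjusted p = 0.0253). The promoter of Tac1, the substance P gene of D1 neurons, ranked at 84.0, 85.1 and 84.4 against 68.5, 74.0 and 70.9, and rose by 0.71 (limma, adjusted p = 0.0447). Meis2, a homeobox gene of striatal development, ranked at 96.0, 94.1 and 94.8 against 89.7, 93.3 and 90.3, and rose by 0.63 (limma, adjusted p = 0.0384). For each of the 3 every cocaine library was above every control. The D1-lineage factor Isl1 and Foxp2 differed by 0.67 and 0.67 without passing the test (limma, adjusted p = 0.0648 and 0.0553), and the opioid receptor gene Oprk1 by 0.59 (0.0726). Over all regions of the list, not promoters alone, the median was 0.09 in diestrus and −0.03 in the 255 with a proestrus value. In proestrus the promoters of Penk, Tac1, Meis2, Isl1 and Foxp2 differed by 0.15, 0.23, 0.28, 0.15 and 0.12. That of Oprk1 differed by −0.27 there.

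Immediate early and activity-induced genes, the best-known early targets of cocaine, were already open. All 41 of the promoters found were called in each library, with a median rank of 96.9 to 97.9 in the cocaine and of 97.4 to 97.9 in the control libraries. The promoter of Fos ranked at 94.8, 94.9 and 91.7 after cocaine and 92.5, 92.9 and 93.9 in controls (log2 difference 0.24, limma adjusted p = 0.347), and Arc, Npas4, Junb and Egr1 also missed the threshold. Jun and Rgs2, a regulator of G protein signalling, rose by 0.53 each (limma, adjusted p = 0.0476 and 0.0395), and both calls were lost when normalised within GC bins. Without cocaine 1, 13 of the 41 promoters rose and 7 fell, against 2714 and 1577 of all 10966 protein-coding promoters tested. Those that fell included Fosb, Npas4, Per1 and Bdnf. Of all 728 regions nearest these genes, promoters included, 12 (1.65%) were gained and 6 (0.824%) lost, against 0.855 and 1.01% of all regions. Without cocaine 1, 25 (3.43%) were gained and 32 (4.40%) lost, against 1.9 and 5.61% of all regions. In both cases the gained share was above that of all regions and the lost share below it. The 12 gained ones were nearest Inhba (4), Egr2 (2), Rgs2 (2) and 4 others.

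Dopamine and cAMP signalling genes had 9 of 1085 regions (0.83%) gained and 7 (0.645%) lost, against 0.855 and 1.01% of all regions. Without cocaine 1 the counts were 13 (1.20%) and 33 (3.04%), both shares under the 1.9 and 5.61% of all regions. Drd1 ranked at 92.8, 89.2 and 79.4 after cocaine and at 85.9, 89.6 and 87.1 in controls, and Drd2 at 82.8, 77.6 and 77.0 against 80.9, 82.6 and 82.6, with log2 differences of 0.19 and −0.03 that missed the threshold. Drd3 ranked at 72.4, 65.4 and 57.1 against 34.7, 49.6 and 47.7, without overlap but with a difference of 0.39 that did not pass (limma, adjusted p = 0.155). The promoter of Creb1, the transcription factor at the end of the cAMP pathway, rose by 0.53, and that of Ppp1ca, a protein phosphatase catalytic subunit, fell by 0.62 on the log2 scale (limma, adjusted p = 0.0367 and 0.0469). The promoter of Drd4 was called in cocaine 1 and all controls and in neither of the other cocaine libraries.

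GABA and glutamate genes had more lost than gained regions, as had all regions (1.01 against 0.855%). Of 964 regions nearest GABA synthesis, transport and receptor genes 8 (0.83%) were gained and 13 (1.35%) lost, although Gad2, encoding a GABA-synthesising enzyme, had 5 gained and no lost of 59 regions and the Gabra2 promoter rose by 0.68 (limma, adjusted p = 0.0322). The GABA list had 20 (2.07%) gained and 61 (6.33%) lost regions without cocaine 1, near the 1.9 and 5.61% of all regions. Glutamate receptor genes had 15 gained (0.851%) and 27 lost (1.53%) of 1763, and without cocaine 1 22 (1.25%) and 124 (7.03%). The promoter of Grik2, a kainate receptor subunit, rose by 0.65 and that of Grm4, a presynaptic metabotropic receptor, fell by 0.78 on the log2 scale (limma, adjusted p = 0.0472 and 0.0343).

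Steroid and stress hormone genes had 3 gained (0.537%) and 5 lost (0.895%) of 559 regions, against 0.855 and 1.01% of all regions. Without cocaine 1 they had 6 (1.07%) and 42 (7.51%), against 1.9 and 5.61%. The promoter of Esr1, encoding estrogen receptor alpha, was called in control 3 alone, and that of Esr2, encoding the beta receptor, in cocaine 1 and 2 and controls 2 and 3. Pgr, the progesterone receptor gene, had a promoter peak in each library, at 85.5, 86.5 and 85.9 after cocaine and 80.9, 83.4 and 82.1 in controls, a difference of 0.36 that did not pass (limma, adjusted p = 0.223). The promoter of Nrip1, a corepressor of nuclear receptors, rose by 0.61 (limma, adjusted p = 0.0474). The 22 autosomal genes linked to X inactivation had no gained and 2 lost of 375 regions, against 0.855 and 1.01% of all regions, and none of their 22 promoters passed the test. Of the 79 tested regions of this list 5 (6.33%) fell, against 1.38% of all, and 1 rose, with a median log2 difference of −0.11. The promoters of Ythdc1, Smchd1 and Ezh2 differed by 0.38, 0.47 and 0.38 (limma, adjusted p = 0.146, 0.112 and 0.111). All 3 promoters and 4 others rose without cocaine 1, and 3 others fell. Over all 10966 protein-coding promoters tested, 2714 rose and 1577 fell without cocaine 1. Of 16 genes that the study itself displayed from these samples, which are no independent evidence, none of 14 promoters called in all libraries passed and 7 rose without cocaine 1.

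With all 6 libraries the marker lists of other cells had 2 to 5 gained or lost regions each, which were larger shares than those over all regions. Of 139 regions nearest glial and vascular genes 3 (2.16%) were gained and 4 (2.88%) lost, of 186 nearest cortical excitatory genes 5 (2.69%) and 4 (2.15%), and of 176 nearest striatal interneuron genes 2 (1.14%) and 3 (1.70%), against 0.855 and 1.01% of all regions. Without cocaine 1 each of these lists had more lost than gained regions, as had all regions (5.61% lost and 1.9% gained). Glial and vascular genes had 4 gained (2.88%) and 14 lost (10.1%), and cortical excitatory genes 10 (5.38%) and 21 (11.3%). Interneuron genes had 4 gained (2.27%) and 15 lost (8.52%). Among 158 tested regions nearest pan-neuronal genes 13 (8.23%) fell and 2 (1.27%) rose, although none of the 12 promoters passed. Without cocaine 1, 12 of 36 tested interneuron gene regions (33.3%) were lower and 1 (2.78%) was higher. Over all tested regions 13.4% were lower and 13.3% higher.

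**Figure D5:**
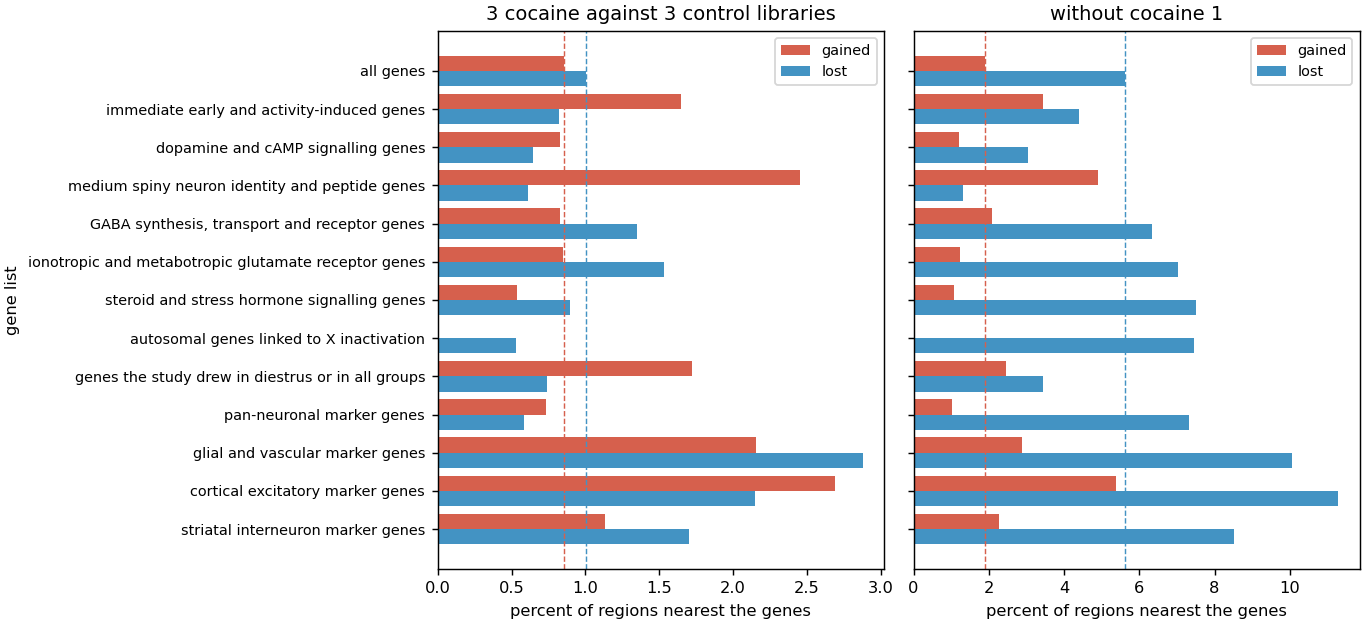
Percent of the regions nearest the genes of each list that were gained (red) or lost (blue), with all 6 libraries (left) and without cocaine 1 (right), and dashed lines at the percent over all regions. Medium spiny neuron genes stand at 2.46% gained and 0.614% lost, against 0.855 and 1.01% over all regions. Cortical excitatory genes stand at 2.69% gained and 2.15% lost.

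By single genes, Isl1 had the most gained minus lost regions together with Celf4, Man1a, Pdzd2 and Pik3c3, with 7 each. For Isl1 8 of 37 regions (21.6%) were gained and 1 lost, and 13 were gained without cocaine 1. Dgkb and Mbnl1 had 6 gained regions each and Alcam, Atp8a1 and Gad2 5 each, with none lost near any of these. The genes with the most lost minus gained regions were as follows. Rbfox1, a splicing factor gene, had 22 lost of 768 regions, Cacna1c, the L-type calcium channel gene, 13 of 258, and Dlg2, a postsynaptic scaffold gene, 10 of 544, with none gained. Rims2, Celf2, Grin2b, Grm5, Lrp1b, Tcf20 and Anks1b followed with 5 to 8 each. Without cocaine 1 Rbfox1 had 113 and Cacna1c 41 lost regions, and Rbfox3 itself 36 of 210, none of them with a gained region. Gene length enters these counts, since a longer gene holds more regions.

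The effect of cocaine in diestrus was set against that in proestrus in a limma fit with an interaction term over 41471 regions called in all 12 libraries. No region responded more strongly upward in diestrus and 1 differed downward, in Ntrk2, and 2508 regions (6.05%) had an unadjusted p below 0.05. Without cocaine 1 the counts were 23 and 83. None of the 26 measures per library differed between the stages in an exact permutation test of the interaction (smallest adjusted p = 0.312). For AP-1 the difference between cocaine and control was 2.06 percentage points in diestrus and 1.95 in proestrus, a difference of 0.108 (exact permutation p = 0.885).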

How the data were processed

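The authors trimmed adapters from the ATAC-seq reads, aligned them to mm10 with BWA-MEM and called peaks in each library with MACS2, whose version and options are not given in the sources used here. The deposited peak lists give a fold enrichment over background (a ratio), −log10 p and −log10 q for each peak, and an integer score, all as the authors' peak caller wrote them. In each library 100% of the folds were whole multiples of the same step, so the background was the same for all its peaks. The authors' read counts were not used here, so the depth of a library is known only through its peaks and the background pileup solved from fold enrichment and p. The fold is normalised within a library and does not carry library size. The submitters' processing notes also name featureCounts and DESeq2.

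Groups came from the sample titles. Peaks on chromosomes 1 to 19 were merged where they overlapped by at least 1 bp. Regions were assigned to classes and to the nearest protein-coding start with GENCODE annotation, and motifs were searched on both strands within 100 bp of the summit in the GRCm38 reference sequence, read with pysam 0.24.0. Windows of 201 bases were printed. Each library was summarised by 26 measures, tested by exact permutation, two-sided, with Benjamini-Hochberg adjustment. Graded fold enrichment was fitted with limma 3.58.1 in R 4.3.3 on quantile-normalised log2 values of regions called in all 6 libraries, with no block and an adjusted p threshold of 0.05. Python 3.11.15, pandas 2.3.3 and scipy 1.17.1 were used.

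Members, gene lists and tests were chosen with earlier results of these data known. The regions named were the 10 gained and 10 lost of highest lowest rank, the same at promoters, and the 10 largest called rises and falls. The genes named were the 10 with the most gained minus lost regions and the converse, and members of the lists. The alternatives were stricter or equally many peaks, other merging, scaling, GC bins, windows and replicate block, and leaving out each library. The repeats, peak width, cocaine 1 left out together with GC bins or percentile ranks, and leaving out libraries in the comparison of stages were added after seeing the data. The X chromosome was not analysed here, and the listed genes Cyr61, Gpr52 and Pgrmc1 had no autosomal protein-coding start under those symbols. Overlapping genes and antisense genes cannot be told apart in accessibility. Some regions, and the sequences of some others, are not reported here.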

Additional observations from a re-analysis of the deposited data

Results flagged for a closer look

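In a limma fit with an interaction term, 1 of 41471 regions responded differently to cocaine in diestrus and in proestrus. It lies at chr13:58970441-58973935 (mm10), in an intron of Ntrk2, the gene of the BDNF receptor TrkB, 164854 bp from its start. The cocaine difference was −1.38 in diestrus and 0.465 in proestrus on the log2 scale, and the difference between them was −1.84 ± 0.299 (SE, limma, adjusted p = 0.0232). The summit sequence is a tandem repeat, with 77.6% of its bases equal to the base 1 repeat unit earlier. In diestrus the region ranked at 90.95, 56.4 and 66.1 in cocaine 1 to 3 and at 96.85, 93.1 and 94.9 in controls 1 to 3. No region passed with normalisation within GC bins, and leaving out 1 library at a time gave 0 to 83 such regions.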

How the results depend on the processing

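Leaving out 1 library at a time gave 2358 to 3976 gained and 2310 to 11717 lost regions, 0 to 6537 higher and 11 to 6572 lower regions, and 0 to 23 higher and 0 to 83 lower regions in the comparison of stages, with the upper values without cocaine 1 in each case. The AP-1 share of gained regions was then 15.8 to 19.5% and that of lost regions 3.26 to 5.72%. With −log10 q of 5 or more 1082 regions were lost, and 25.5% of gained regions held AP-1; with equal numbers of the strongest peaks 4.19% of lost regions did. Of the 10 named lost promoters 1 and 4 were kept under these settings. Graded calls fell to 0 higher and 0 lower on percentile ranks, where 2315 and 3530 regions had an unadjusted p below 0.05. Median centring gave 527 higher and 445 lower. Without cocaine 1, GC bins gave 6076 and 6054 and percentile ranks 868 and 8804. In the comparison of stages GC bins gave 0 regions in either direction. The promoter share turned to −0.142 percentage points with equal numbers of peaks and to −0.424 with a 3 kb window, and the GC box share to −0.0567 with equal numbers of peaks. The cause of these changes was not tested.

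With the replicate block 4 regions rose and 17 fell, and with the block and GC bins 10 and 22. Same-numbered libraries correlated by −0.193, 0.00256 and −0.114 in their deviations from the group means, so the numbers were not taken to pair the samples. The 10 largest falls all passed with the block and 4 of the 10 largest rises did. All 20 kept their direction in each alternative fitted on log2 fold enrichment. The Jun and Rgs2 promoter calls were lost with median centring, GC bins and the block. Pools number 3 per group, so an exact test could not pass below 0.1, or 0.2 without cocaine 1.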

Other observations

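Without cocaine 1, the gene with the most gained minus lost regions was Runx1t1, a transcriptional corepressor gene, with 19 of 141 regions gained and none lost. Of its 27 regions called in all 6 libraries 9 rose and none fell (limma, adjusted p below 0.05). Basp1, which encodes a growth cone protein, had 10 of 64 regions gained and none lost, and 8 of its 17 tested regions rose. Cdh11, a cadherin gene, had 12 of 117 gained and 3 lost. Among the genes with the most lost regions in the same comparison, Auts2 had 27 of 277, Kalrn, a guanine exchange factor gene of dendritic spines, 29 of 298, and Kcnma1, the BK potassium channel gene, 25 of 284. Gabbr2, a GABA-B receptor subunit gene, had 25 of 100 and Nav2, a neuron navigator gene, 25 of 112. Of the tested regions, 23 of 59 fell for Auts2 and 27 of 36 for Rbfox3, and none rose. With all 6 libraries these genes were not among the 10 with the most gained or lost regions.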
